A study of Mus musculus with 23 samples.

Results

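RNA sequencing libraries of B16F10 tumors were compared between 6 bulk tumors, in which melanoma and host cells were sequenced together, and 6 preparations of tumor cells sorted from tumors. These 12 libraries, of 23 in the deposited table, were chosen by their labels alone, and the 2 sample types were compared within guide group over the 13493 genes, of 47643, whose mean over the 12 libraries reached 1 TPM (transcript abundance scaled for transcript length and to the same total in every library). B16F10 is a melanoma line of C57BL/6 mice, and its cells were grown under the skin of male C57BL/6 mice 6 to 8 weeks old. Each sample type held 2 libraries of control cells, 2 of cells edited with the guide sg492 and 2 of cells edited with sg495, and both guides target the nuclear receptor gene Nr2f6 in the tumor cells while the host keeps its own copy. Edited cells had received Cas9 protein with a labeled guide and had been sorted for that label, and the sources used here do not state whether pools or clones were grown. Sorted tumor cells had been digested with collagenase D and DNase for 1 h at 30 °C, passed through a 70 µm strainer and depleted of host cells with magnetic beads, whereas no such step is described for bulk tumors. The paper reports that purity of the sorted cells was checked by flow cytometry for the leukocyte antigen CD45. Cultured B16F10 cells (6 libraries, 2 in each guide group) served as a reference for what the line expresses without a host. The sources do not state whether a bulk tumor and a sorted preparation came from the same animal, nor that libraries of a group came from separate animals, so p-values measure the spread between these libraries, which may be technical.

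A subcutaneous tumor is a mixed tissue. Alongside the melanoma cells it holds macrophages and other leukocytes, vessels with endothelium and mural cells, fibroblasts that lay down collagen, blood, and skin or muscle taken along at excision. Enzymatic digestion is known as a stimulus in its own right: immediate early genes, whose transcripts need no new protein synthesis to be induced and decay quickly, can rise while a tissue is being taken apart, and heat shock and unfolded protein responses can follow. A comparison of bulk with sorted samples therefore varies host content, digestion, and passage over the beads at the same time, and their parts cannot be told apart by these labels.

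The authors state 23000000 to 31000000 reads for each library. TPM hold no read totals, so how deeply any one of the 12 was read is not known. The 12 libraries had 12577 to 13899 genes at 1 TPM or more, and mitochondrial transcripts took 3.45% to 8.02% of the TPM, the highest share in sg495 sorted replicate 1. Nr2f6, the targeted gene, had 15.8 to 25.8 TPM (median 22.8) in bulk tumors and 10.6 to 25.7 TPM (median 18.8) in sorted tumor cells, and the lowest 2 libraries of either sample type were those of sg495. Of the sorted libraries labeled sg492, 1 had more Nr2f6 RNA than both controls (25.7 against 20.3 and 17.7 TPM). The paper checked the knockout by immunoblot and by sequencing the target regions. TPM do not measure protein, so this value does not decide whether the protein was lost. The sg492 libraries are therefore named by their label, and the counts below were also made without these 4 libraries. Every melanocyte gene on the list of 12 was expressed in both sample types, with no member called in either direction, as described further on.

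Bulk tumors and sorted tumor cells differed in 1927 genes. Expression was fitted as log2(TPM + 1) with limma, with sample type and guide group as terms, and a call needed both an adjusted p (Benjamini-Hochberg) under 0.05 and a difference of at least 1.5-fold on that scale, which understates the change of low genes. Differences are bulk minus sorted on this scale, given ± standard error with the adjusted p of limma. In bulk tumors 1345 genes were called higher, or 9.97% of those tested, and in sorted tumor cells 582 genes, or 4.31%. The differences were unequal in size: 474 of the genes higher in bulk differed more than 4-fold and 90 more than 16-fold, whereas 36 of those higher in sorted cells differed more than 4-fold and 1 more than 16-fold. In 1063 of the 1345 and 437 of the 582 genes, all 6 libraries of one sample type lay beyond all 6 of the other. The median difference over all genes tested was 0.05 on the log2 scale. Of all calls, 69.8% were in the bulk direction, and with quantile normalization 42.5% were (1018 higher in bulk and 1380 higher in sorted cells), so the balance of the 2 directions depends on the scaling while no gene changed from one direction to the other. Without the sg492 libraries, 1297 and 594 genes were called.

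**Figure D1:**
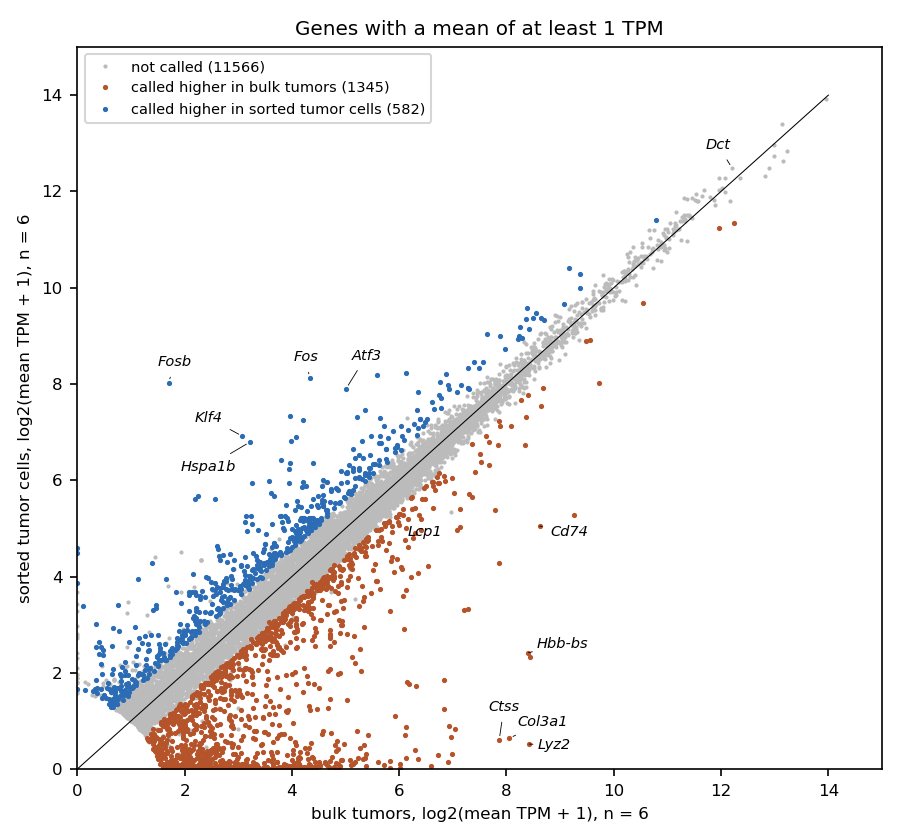
Mean expression of 13493 genes in 6 bulk tumors (x axis) and 6 sorted tumor cell libraries (y axis), both as log2(mean TPM + 1); the line marks equal expression. Genes called higher in bulk (orange, 1345) reach down to sorted values near 0, while genes called higher in sorted cells (blue, 582) lie closer to the line, Fosb apart.

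What the genes of each direction are in cultured B16F10 cells differed. Among the 1345 genes higher in bulk, 421 (31.3%) had at most 0.1 TPM in every cultured library, against 10 (1.72%) of the 582 higher in sorted cells. Of the 28958 genes of the table under that limit, 521 reached the filter on mean TPM. A gene silent in culture could reach it through bulk values alone and then had to differ, so these counts are a description and no support. All 28958 together took between 0.455% and 0.891% of the TPM in bulk tumors and between 0.0553% and 0.165% in sorted cells. The groups did not overlap in this share. In bulk samples, fewer cells of a type and less RNA per cell cannot be told apart, so none of these values is a proportion of cells.

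Leukocyte transcripts were the first host component. Ptprc, which encodes the leukocyte antigen CD45 (ENSMUSG00000026395, chromosome 1, 138062861 to 138175708 on GRCm38), had 5.74 to 26.2 TPM (median 14.9) in bulk tumors and 0 to 0.15 TPM (median 0.03) in sorted cells, a log2 difference of 3.78 ± 0.21, adjusted p = 5.13e-08. Every bulk tumor lay above every sorted library, and in bulk the control tumors were lowest and the sg495 tumors highest. Of the 12 pan-leukocyte genes, 11 were called higher in bulk (9.97% of all genes were) and none in sorted cells (4.31% of all), with a median log2 difference of 2.94. For this and the other host lists, a member that sorted cells hardly express could pass the filter through bulk alone and then had to differ, so the counts over tested members describe them and are no support. Cd52, a small surface antigen of lymphocytes and macrophages, was listed at 0 in 3 of 6 sorted libraries and had 23.1 to 83.3 TPM (median 54.8) in bulk.

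Macrophage and monocyte genes made up the largest leukocyte signal. All 14 tested members of 16 were called higher in bulk, against 9.97% of all genes, with a median log2 difference of 4.17. Lyz2, the lysozyme of macrophages and neutrophils (ENSMUSG00000069516, chromosome 10, 117277331 to 117282321 on GRCm38), had 226 to 443 TPM (median 344) in bulk and 0.14 to 0.82 TPM (median 0.395) in sorted cells (7.88 ± 0.11, adjusted p = 6.6e-13), the largest difference in the bulk direction among protein-coding genes whose libraries did not overlap. A near-identical copy, Lyz1, exists, and how reads were shared between them is uncertain. C1qb and C1qa, chains of complement C1q that tissue macrophages secrete, had 65.8 to 161 TPM (median 119) and 51.2 to 126 TPM (median 95.4) in bulk. In sorted cells C1qb stayed at or below 0.31 TPM and C1qa at or below 0.16 TPM. Adgre1, which encodes the macrophage surface protein F4/80, had 8.05 to 32.4 TPM (median 18.4) in bulk and was listed at 0 in 5 of 6 sorted libraries. Outside the lists, the largest differences held more genes of this kind: Ctss, the cathepsin that trims antigens for presentation (7.25 ± 0.17, adjusted p = 3.95e-11), and the chemokines Ccl8 (6.66 ± 0.09, adjusted p = 6.6e-13) and Ccl6 (6.36 ± 0.23, adjusted p = 1.19e-09). Ly6a and Ly6e, surface proteins of the Ly6 family, were higher too, with 53.8 to 149 TPM (median 108) and 57.8 to 177 TPM (median 126) in bulk against at most 0.91 and 1.53 TPM in sorted cells.

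Lymphocyte, dendritic and granulocyte transcripts were present at lower levels. All 9 tested T cell genes of 15 were called higher in bulk, against 9.97% of all genes (median log2 difference 1.72), among them Trbc2, a constant segment of the T cell receptor beta chain, at 3.54 to 17.7 TPM (median 8.11) against 0 in 5 sorted libraries and 0.12 TPM in the other. Cd3e, a signaling subunit of that receptor, was too low to be tested, at 0.55 to 3.35 TPM (median 1.52) in bulk and 0 in every sorted library. All 7 tested natural killer and cytotoxic genes of 10 were called higher in bulk, against 9.97% of all genes (median 2.30). Among them, the granule protease gene Gzmb had 3.2 to 24.3 TPM (median 10.9) in bulk and at most 0.26 TPM in sorted cells. Of 6 tested dendritic cell genes, 5 were called higher in bulk, against 9.97% of all genes. Clec10a and Itgax had 5.31 to 14.7 TPM (median 9.53) and 2.85 to 7.81 TPM (median 5.99) in bulk, and both were at 0 in every sorted library. The exception, Zbtb46, had 3.40 to 4.82 TPM in bulk, 3.32 to 4.46 TPM in sorted cells and 3.54 to 4.37 TPM in culture, so here it did not mark host cells. B and plasma cell transcripts were low, with 2 genes of that list tested, and Ighm, the heavy chain of IgM, was called (2.83 to 12.4 TPM, median 5.66, in bulk, 0 in sorted cells). The other, Cd79a, was not called, at 1.61 to 3.26 TPM in bulk and 2.26 to 4.16 TPM in sorted cells. No mast cell gene reached the expression filter, although the 6 genes of that list that culture did not express summed to 3.40 to 8.38 TPM in bulk and at most 0.19 TPM in sorted cells.

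Neutrophil transcripts were low in bulk and overlapped more with sorted cells. S100a8 and S100a9, the calgranulin subunits, had 1.69 to 6.32 TPM (median 2.6) and 0.96 to 5.19 TPM (median 1.16) in bulk. In sorted cells S100a8 ran from 0 to 4 TPM and S100a9 from 0 to 1.25 TPM, the highest in sg495 replicate 2, so both overlapped the bulk values. The call of S100a8 (log2 difference 1.06 ± 0.39, adjusted p = 0.0456) was lost with 9 of the 12 libraries left out one at a time. Csf3r, the receptor of granulocyte colony-stimulating factor, did not overlap, at 0.97 to 5.46 TPM (median 3.42) in bulk and at most 0.18 TPM after sorting. All 5 tested members of 10 were called, against 9.97% of all genes, 4 or 5 with 1 library left out at a time and 3 without the sg492 libraries. Ly6g, which defines neutrophils at the surface, was listed at 0 in all 12 libraries.

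Vessel genes were present in every bulk tumor. Pecam1, an adhesion protein of endothelial junctions, had 16 to 20.5 TPM (median 20.1) in bulk and 0.15 to 0.85 TPM (median 0.415) in sorted cells (3.81 ± 0.11, adjusted p = 1.56e-10), and Cdh5, the cadherin of the same junctions, had 13.3 to 18.1 TPM (median 15.6) in bulk and was listed at 0 in 5 of 6 sorted libraries. Of 13 tested endothelial genes of 14, 11 were called higher in bulk, against 9.97% of all genes, with a median log2 difference of 3.0. The 7 that culture did not express summed to 46.2 to 58.4 TPM in bulk and at most 0.13 TPM in sorted cells. Mural cells gave a similar picture. All 7 tested pericyte and smooth muscle genes of 10 were called against the same 9.97% (median 1.60), with Rgs5, a pericyte regulator of G protein signaling, at 15.7 to 26.6 TPM (median 18.3) in bulk and at most 0.04 TPM in sorted cells, and Acta2, smooth muscle actin, at 20.7 to 31.5 TPM (median 26.4) against at most 0.1 TPM.

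Fibroblast and matrix genes showed some of the largest differences. Of 12 tested genes of 13, 11 were called higher in bulk, against 9.97% of all genes, with a median log2 difference of 4.49. Col3a1, a fibrillar collagen of loose connective tissue (ENSMUSG00000026043, chromosome 1, 45311538 to 45349706 on GRCm38), had 169 to 478 TPM (median 238) in bulk and 0 to 1.54 TPM (median 0.38) in sorted cells (7.4 ± 0.22, adjusted p = 3.1e-10). Col1a1, the main collagen of scar and skin, had 72.2 to 208 TPM (median 114) against 0.4 to 1.92 TPM (median 0.725). The highest value of both in bulk was in sg495 replicate 2, and no sorted library came near the lowest bulk tumor. Fbln1, a matrix protein that the line itself makes (46.7 to 62.8 TPM in culture), had 51.7 to 72.3 TPM in bulk and 61.0 to 85.7 TPM in sorted cells and was not called.

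Bulk tumors also carried tissue from around and within the tumor. All 9 skeletal muscle genes were called higher in bulk, against 9.97% of all genes (median log2 difference 2.78), among them Acta1, the actin of muscle fibers, at 45.5 to 103 TPM (median 69.3) in bulk and 0.28 to 6.29 TPM (median 1.5) in sorted cells, and Tnnt3, a troponin of fast fibers, at 27.6 to 51.4 TPM (median 34.1) against 0 to 3.22 TPM (median 0.285). Mylpf, a fast myosin light chain, had 4.46 to 7.59 TPM (median 5.58) in sorted cells and 6.04 to 11.3 TPM in culture, so its remainder after sorting was no higher than in culture. Red cell transcripts varied widely between tumors: Hbb-bs, adult beta globin, had 127 to 661 TPM (median 259) in bulk. All 5 tested erythroid genes of 7 were called higher in bulk, against 9.97% of all genes, with a median of 5.14. The globin genes have near-identical copies between which reads can be split. In sorted cells Hbb-bs still had 1.03 to 15.3 TPM (median 2.54), highest in sg495 replicate 2, against 0 in culture. Of 2 tested platelet genes of 6, 1 was called higher in bulk, against 9.97% of all genes. This was Pf4, a chemokine stored in platelets, with 19.2 to 32.2 TPM (median 28.1) in bulk and at most 1.36 TPM in sorted cells. The other, Itga2b, was not called, at 1.02 to 2.3 TPM in bulk and 1.24 to 6.4 TPM in sorted cells. All 6 platelet genes summed to 21.5 to 35.4 TPM in bulk, most of it Pf4. The 2 that culture did not express summed to 0.35 to 1.64 TPM, so the rest of the list hardly marked platelets. Of the adipocyte genes, only Cfd, which encodes adipsin, reached the filter (2.17 to 8.54 TPM, median 4.95, in bulk, at most 0.08 TPM in sorted cells), while Adipoq, the fat cell hormone adiponectin, had 0 to 1.5 TPM in bulk. Keratinocyte genes were not tested either. Their sum was 10.97 and 8.92 TPM in the sg492 bulk tumors, 0.11 to 3.95 TPM in the other 4, and 0 in every sorted library.

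Taking only the markers that culture did not express above 0.1 TPM, the mean of the sorted libraries was 0.101% of the bulk mean for endothelial genes, 0.119% for macrophage genes, 0.206% for fibroblast genes, 0.317% for mural genes and 0.329% for pan-leukocyte genes. It was 0.28% for natural killer, 0.677% for dendritic cell, 1.32% for T cell, 1.34% for skeletal muscle and 1.35% for erythroid genes. The highest were 4.92% for neutrophil, 5.13% for adipocyte, 6.95% for B cell and 18.7% for platelet genes, where adipocyte and platelet markers summed to at most 3.17 and 1.64 TPM in bulk. Several of these values rested on sorted sg495 replicate 2. Without it the remainder was 0.183% for pan-leukocyte, 0.215% for mast cell (0.746% with it), 0.479% for skeletal muscle, 0.847% for erythroid, 2.43% for neutrophil and 4.31% for B cell genes. By guide group, the remainder was highest in sg495 for 9 lists, in control for 5 and in sg492 for 1, and keratinocyte genes had none. For skeletal muscle markers the sg495 sorted libraries had 0.14 and 4.05 TPM, and for erythroid markers 6.48 and 33.5 TPM, whereas the endothelial remainder was 0.155% in control, 0.141% in sg492 and 0.0174% in sg495. Differences between guide groups in the remainder were not tested. Of the 165 genes on the 16 host lists, 104 reached the filter, 97 of these were called higher in bulk (9.97% of all genes were) and none in sorted cells, and 44 of the 165 were at 0 in every sorted library.

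**Figure D2:**
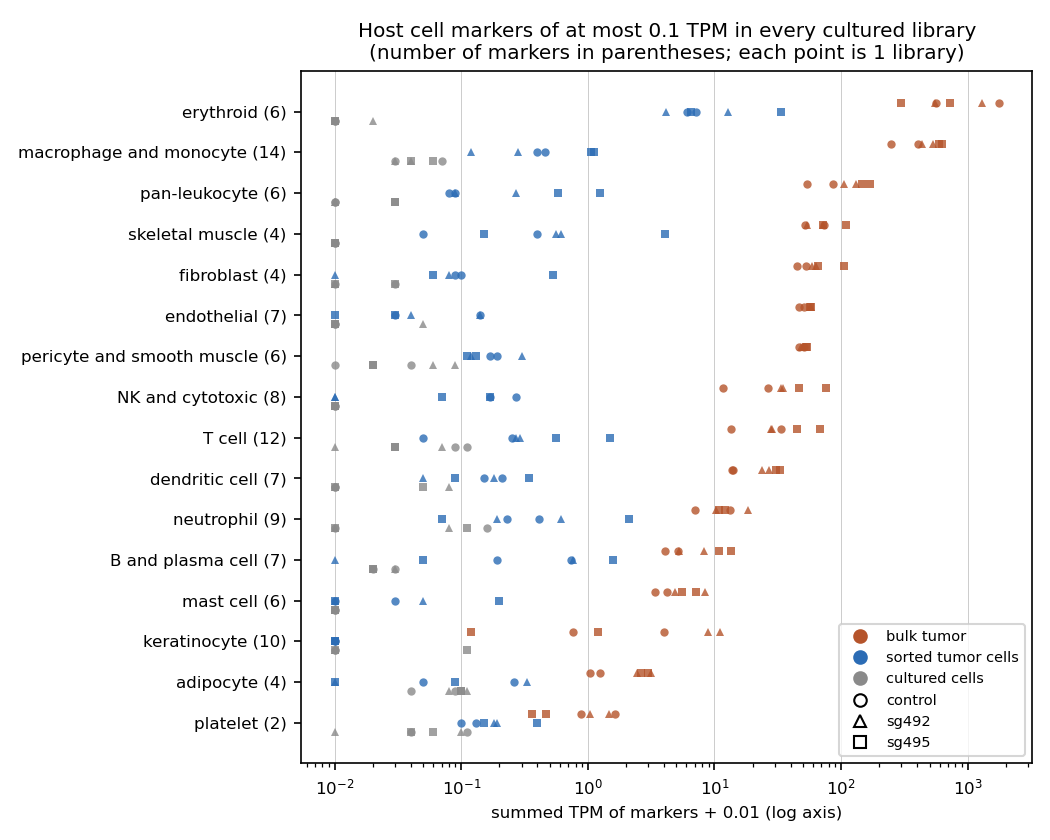
Summed TPM of host cell markers in each of 18 libraries (log axis, 0.01 added), for the members of each list with at most 0.1 TPM in every cultured library; colors give the sample type and shapes the guide group. For every list but the platelet list, all bulk tumors (orange) lie above all sorted libraries (blue), and erythroid, skeletal muscle and neutrophil markers reach their highest sorted value in 1 sg495 library.

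Some genes listed as host markers were found in sorted libraries at levels that the other markers of the same cells did not share. Lcp1, the leukocyte actin-bundling protein plastin, had 38.8 to 73.7 TPM (median 62) in bulk, 26.8 to 47.5 TPM (median 37.2) in sorted cells and 0.59 to 1.34 TPM in culture, while Ptprc in the same sorted libraries did not exceed 0.15 TPM. Vwf, the adhesive glycoprotein of endothelium and platelets, had 7.71 to 18.8 TPM in bulk, 13.4 to 31.8 TPM in sorted cells and 0.14 to 1.38 TPM in culture, and it was not called. Lck, a T cell kinase, had 2.76 to 5.82 TPM (median 4.22) in sorted cells against 0.65 to 1.55 TPM in culture, and the chemokine gene Ccl5 3.69 to 12.5 TPM (median 6.5) against 0.71 to 3.04 TPM. Cd79a, a B cell receptor subunit, and Itga2b, the platelet integrin, were also higher in every sorted than in every cultured library, at 2.26 to 4.16 TPM and 1.24 to 6.40 TPM. In all, 13 of the 165 genes had every sorted library above every cultured library, 11 of them with at least 1 TPM in each sorted library. Not all 13 stood apart from their list. They include the globins Hba-a2 and Hbb-bs, and erythroid markers that culture did not express summed to 4.14 to 33.5 TPM in sorted cells. C1qc had only 0.06 to 0.27 TPM in sorted cells, and Egfl7 had 16.9 to 19.6 TPM in culture itself. Host cells and tumor cells grown in a host cannot be told apart as the source of these transcripts in bulk.

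Melanocyte genes differed little between bulk and sorted samples. None of the 12 was called, against 9.97% and 4.31% of all genes in the 2 directions, and their median log2 difference was 0.08. Tyr, tyrosinase, which catalyzes the first step of pigment synthesis, had 402 to 456 TPM in bulk and 396 to 467 TPM in sorted cells. Dct, dopachrome tautomerase of the same pathway, had 5259 to 6107 TPM (median 5792) in sorted cells against 4458 to 4935 TPM (median 4752) in bulk, and although its libraries did not overlap, its difference of −0.27 stayed under 1.5-fold. The summed TPM of the list was 16839 to 18032 in bulk and 16525 to 19322 in sorted cells. Over the 7924 tested genes that culture expressed at 10 TPM or more in every library, called tumor-expressed here, 94.3% differed by less than 1.5-fold, 229 (2.89%) were called higher in bulk and 213 (2.69%) higher in sorted cells.

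Of the lists examined, immediate early genes had the largest share called higher in sorted tumor cells. Of 24 tested members of 25, 20 were called higher in sorted cells, or 83.3% against 4.31% of all genes, and the median log2 difference was −1.69. The lead gene was Fosb, a partner in the AP-1 transcription factor (ENSMUSG00000003545, chromosome 7, 19302696 to 19310051 on GRCm38). It had 0.86 to 4.79 TPM (median 2) in bulk, 155 to 325 TPM (median 275) in sorted cells and 0.07 to 0.38 TPM in culture, a log2 difference of −6.40 ± 0.27, adjusted p = 5.61e-09, with a sorted mean 115 times the bulk mean, the only gene more than 16-fold higher in sorted cells. Fos, its relative (ENSMUSG00000021250, chromosome 12, 85473890 to 85477273 on GRCm38), had 13.5 to 27.4 TPM (median 18.1) in bulk and 221 to 468 TPM (median 244) in sorted cells (−3.78 ± 0.19, adjusted p = 2.11e-08), and Jun, their partner, 14.8 to 20 TPM (median 17.2) and 103 to 238 TPM (median 127), a difference of −3.00 ± 0.18, adjusted p = 1.09e-07. For all 3, the lowest sorted library was at least 5 times the highest bulk tumor. The call of Fosb, Fos and Jun held under every alternative that was run.

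Most other members were called as well. Klf4, a zinc finger factor of differentiation and reprogramming, had 4.97 to 9.48 TPM (median 7.58) in bulk and 80.4 to 167 TPM (median 117) in sorted cells, and Atf3, a stress-induced repressor, 23.8 to 36 TPM (median 33.1) and 171 to 342 TPM (median 208). Egr1, a growth factor induced zinc finger factor, had 6.52 to 9.78 TPM (median 8.59) and 33.1 to 94.5 TPM (median 57.1), a difference of −2.62 ± 0.19, adjusted p = 5.72e-07. Cyr61, a matricellular protein, and Nr4a1, an orphan nuclear receptor, had 237 to 383 TPM (median 276) and 261 to 323 TPM (median 305) in sorted cells, which for Nr4a1 was 4.34 times the bulk mean. Dusp1, a phosphatase that switches off MAP kinases, and Zfp36, which speeds the decay of AU-rich transcripts, differed by −2.39 and −1.47 on the log2 scale. None of these overlapped between the sample types, and in each the bulk tumors also lay above every cultured library. Socs3, a feedback inhibitor of cytokine signaling, and Ctgf, a matricellular protein, went the other way, at 9.5 to 23.6 TPM (median 15) and 18.5 to 45.7 TPM (median 30.2) in bulk against 5.21 to 16.9 TPM (median 9.72) and 11.7 to 22.2 TPM (median 16.8) in sorted cells. Both overlapped, and the call of Socs3 was lost in 20 of 25 alternatives, 9 of them with 1 library left out. Ier3 and Ier5 were not called.

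The promoters of the immediate early and heat shock genes, and of all tested genes, were searched for the cyclic AMP element, the CArG box and the heat shock element. Promoter sequences from RefSeq on GRCm38.p6, from 250 bases before to 50 after the start site, were matched for 9381 of the tested genes and for 19 of the 25 immediate early genes. Elements outside this window were not searched. The cyclic AMP element TGACGTCA was found in 3 of the 19 (15.8%) against 3.71% of all matched genes, and the CArG box, the site of serum response factor, in 2 of 19 (10.5%) against 1.49%. The heat shock element GAANNTTC was in 1 of 19 (5.26%) against 6.95%, and in 7 of 9 matched heat shock genes (77.8%). Each pattern reads alike on both strands, and none overlapped another in the sequences below. Over all genes with a matched promoter, the cyclic AMP element was in 6.39% of those higher in sorted cells and 1.81% of those higher in bulk, but among tumor-expressed genes in 3.97% of those higher in sorted cells, 2.21% of those higher in bulk and 3.93% of all. The other shares over all matched genes were, in the order sorted and bulk, 3.33% and 2.03% for the CArG box, and 7.50% and 8.96% for the heat shock element. A match is a description of these letters only. Shown are 4 promoters of called genes, each with its match in capitals: the cyclic AMP element in Dusp1 (chr17:26508423-26508722, minus strand, match at −143 from the start site), the CArG box in Zfp36 (chr7:28379179-28379478, minus strand, match at −58 from the start site), and the heat shock element in Hspa1b (chr17:34959189-34959488, minus strand, match at −104 from the start site) and Jun (chr4:95052173-95052472, minus strand, match at −128 from the start site).
Dusp1: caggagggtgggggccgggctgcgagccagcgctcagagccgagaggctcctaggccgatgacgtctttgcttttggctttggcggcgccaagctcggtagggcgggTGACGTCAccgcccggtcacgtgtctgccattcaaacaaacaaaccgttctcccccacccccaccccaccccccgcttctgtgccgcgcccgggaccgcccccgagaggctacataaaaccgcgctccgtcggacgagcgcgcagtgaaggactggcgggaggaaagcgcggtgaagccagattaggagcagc
Zfp36: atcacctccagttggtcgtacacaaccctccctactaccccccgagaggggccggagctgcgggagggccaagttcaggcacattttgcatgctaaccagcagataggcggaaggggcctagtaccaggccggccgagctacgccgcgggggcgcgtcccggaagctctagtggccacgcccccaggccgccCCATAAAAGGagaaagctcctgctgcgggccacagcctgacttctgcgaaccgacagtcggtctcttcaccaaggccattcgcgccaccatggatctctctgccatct
Hspa1b: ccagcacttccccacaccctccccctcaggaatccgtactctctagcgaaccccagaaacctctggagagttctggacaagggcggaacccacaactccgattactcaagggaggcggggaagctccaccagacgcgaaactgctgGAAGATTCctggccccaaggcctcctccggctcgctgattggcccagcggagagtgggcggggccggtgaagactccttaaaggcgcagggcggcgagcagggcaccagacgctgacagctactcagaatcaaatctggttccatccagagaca
Jun: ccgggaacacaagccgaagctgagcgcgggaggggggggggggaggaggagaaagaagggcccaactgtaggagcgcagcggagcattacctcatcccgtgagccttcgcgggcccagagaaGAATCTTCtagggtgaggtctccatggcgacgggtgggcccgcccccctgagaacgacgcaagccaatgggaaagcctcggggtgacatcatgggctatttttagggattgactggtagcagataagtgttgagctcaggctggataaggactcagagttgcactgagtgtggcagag

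Of 13 tested heat shock genes of 14, 2 were called higher in sorted cells (15.4% against 4.31% of all genes) and 1 in bulk (7.69% against 9.97%), with a median of −0.02. The inducible chaperone gene Hspa1b had 6.57 to 12.5 TPM (median 7.26) in bulk and 38.1 to 300.2 TPM (median 86.6) in sorted cells (−3.25 ± 0.38, adjusted p = 3.22e-05). Its sorted values were 38.1 and 45.5 TPM in control, 103 and 102 TPM in sg492, and 71.0 and 300.2 TPM in sg495, all above every bulk tumor. Hspa1a, its near-identical neighbor, had at most 1.78 TPM in any of the 12 libraries, and how reads were split between the pair is uncertain. Dnajb1, a cochaperone of Hsp70 proteins, overlapped between sample types (30.5 to 42.8 TPM, median 36.4, in bulk, 39.5 to 146 TPM, median 60, in sorted cells, −0.83 ± 0.25, adjusted p = 0.02), and its call was lost without sg495 sorted replicate 2 or without the sg492 libraries, and with control or sg495 libraries alone. The abundant constitutive chaperones Hspa8, Hsp90ab1 and Hsp90aa1 were not called. Hspb1, a small heat shock protein that culture did not express, was higher in bulk, at 10.4 to 21.2 TPM (median 15) against 0.36 to 2.36 TPM (median 0.72).

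**Figure D3:**
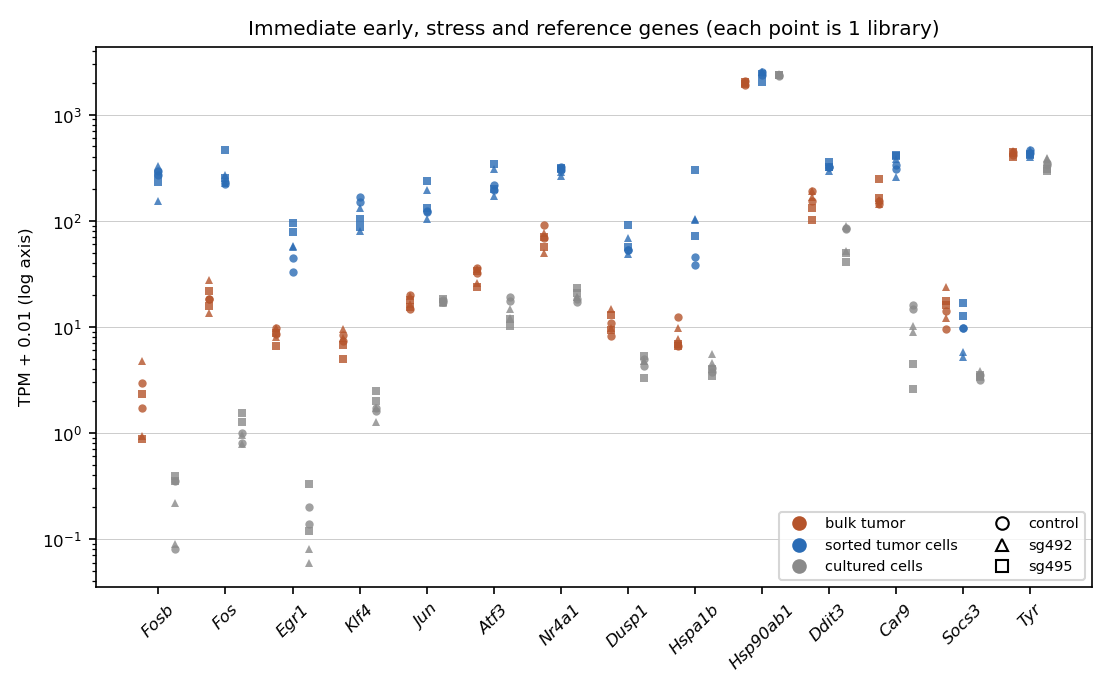
TPM of 14 genes in 6 bulk tumors, 6 sorted tumor cell libraries and 6 cultured libraries (log axis, 0.01 added); each point is a library and shapes give the guide group. From Fosb to Hspa1b the sorted libraries lie above all bulk tumors, while Hsp90ab1, Socs3 and the pigment gene Tyr overlap.

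Genes of the integrated stress response, in which phosphorylation of eIF2alpha favors translation of Atf4, formed another list. Of the 14 genes of ATF4 and the unfolded protein response, 8 were called higher in sorted cells and none in bulk (57.1% against 4.31% of all genes), with a median log2 difference of −0.74. Ddit3, the apoptosis-linked factor CHOP, had 102 to 190.4 TPM (median 159.9) in bulk and 295 to 359.7 TPM (median 322) in sorted cells, and Chac1, which degrades glutathione, 28.1 to 61.1 TPM (median 43.7) and 86.5 to 145 TPM (median 122). Dnajb9, a cochaperone of the endoplasmic reticulum, had 28.6 to 38.7 TPM (median 33.6) against 81.2 to 118 TPM (median 102) (−1.52 ± 0.08, adjusted p = 3.78e-08), and Atf4 itself 310.4 to 484 TPM (median 409.7) against 597 to 711 TPM (median 672). The groups did not overlap for any of these 4. The chaperone Hspa5, the standard readout of the unfolded protein response, had 966 to 1125 TPM in bulk and 881 to 1171 TPM in sorted cells and was not called, and neither were Xbp1, Sdf2l1, Psat1, Phgdh and Asns.

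Hypoxia and glycolysis genes were divided. Of 16 genes, 6 were called higher in sorted cells (37.5% against 4.31% of all genes) and 2 in bulk (12.5%, near the 9.97% of all genes), with a median of −0.40. Car9, the carbonic anhydrase of hypoxic tumors, had 143 to 245 TPM (median 155) in bulk and 258 to 415 TPM (median 357) in sorted cells but 2.57 to 16.1 TPM in culture, and Vegfa, the vessel growth factor, 91.4 to 146 TPM (median 123) and 185 to 287 TPM (median 236). Ndrg1, Bnip3, Pdk1 and Pgk1 were the other 4, with Pgk1 past the fold limit by little (−0.62 ± 0.06, adjusted p = 9.44e-06). The most abundant glycolytic genes, Eno1, Aldoa and Ldha, did not overlap between the sample types yet differed by only −0.30, −0.40 and −0.39 on the log2 scale. Egln3, the oxygen-sensing hydroxylase, and Adm, the vasodilator adrenomedullin, are also induced by hypoxia but were higher in bulk, at 2.23 to 3.21 TPM (median 2.88) and 14.3 to 37.9 TPM (median 20.3) against 0.96 to 1.6 TPM (median 1.35) and 6.99 to 18.8 TPM (median 11.1). Host cell markers moved in the bulk direction with these values, and their part was not tested.

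Of 10 tested genes of 12 in the NF-kB early response, 7 were called higher in bulk (70.0% against 9.97% of all genes) and none in sorted cells. Ccl2, a chemokine that draws monocytes, had 28 to 48.4 TPM (median 42.9) in bulk and was listed at 0 in 5 of 6 sorted libraries, and Il1b, a cytokine of myeloid cells, had 2.53 to 12.3 TPM (median 3.83) against 0.06 to 1.16 TPM (median 0.335). Nfkbia, the inhibitor that NF-kB itself induces, had 12 to 17.8 TPM (median 16.6) in bulk, 5.13 to 8.8 TPM (median 6.79) in sorted cells and 11.7 to 14.5 TPM in culture, so that sorted cells were below both. Nfkbiz, Tnfaip3 and Il6 were not called.

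Tumor-expressed genes were next set against culture, which held no host cells. Of the 213 higher in sorted cells, every sorted library lay above every cultured library in 175 (82.2%), against 14.2% of all tumor-expressed genes. Bulk tumors overlapped culture in 144 of the 213, lay above it in 50 and below it in 19. Of the 229 higher in bulk, every sorted library lay below every cultured library in 161 (70.3%), against 31.0% of all tumor-expressed genes. Bulk tumors overlapped culture in 123 of the 229, lay above it in 49 and below it in 57. These genes were chosen by the same bulk and sorted values, so the positions are a description and no support. The 10 largest differences without overlap in the sorted direction were Jun, Atf3, Hist1h1c, Cyr61, Sectm1a, Ppp1r15a, Nr4a1, Trp53inp1, Utp14b and Jund. Hist1h1c, a linker histone with close paralogs, had 11.5 to 18.4 TPM (median 15) in bulk, 81.6 to 126 TPM (median 118) in sorted cells and 11.3 to 14.5 TPM in culture. The libraries were selected for poly(A), and whether that bears on this histone gene was not tested. Ppp1r15a, which restores translation by dephosphorylating eIF2alpha, had 20.3 to 56.6 TPM (median 38.7) and 143 to 194 TPM (median 187), and Trp53inp1, a p53 target, 6.96 to 9.59 TPM (median 7.5) and 25.9 to 37.8 TPM (median 35.1). Among all protein-coding genes, the 10 largest sorted-direction differences also held Irs2, an adaptor of the insulin receptor (3.07 to 4.57 TPM, median 3.19, in bulk, 37.4 to 56.3 TPM, median 49.6, in sorted cells), Arrdc3, an arrestin family protein (12.1 to 16.2 TPM, median 14.8, and 116 to 181 TPM, median 172), and Hes1, a Notch target and repressor (4.21 to 5.7 TPM, median 4.88, and 35.7 to 54 TPM, median 49.3).

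In the bulk direction the 10 largest differences among tumor-expressed genes were Sdc3, Pmp22, Ctsh, Dab2, S100a6, Fam212a, Pltp, S100a4, Glrx and Ccnf. Sdc3, a heparan sulfate proteoglycan, had 13.2 to 34.6 TPM (median 27) in bulk, 3.15 to 6.45 TPM (median 4.64) in sorted cells and 16.5 to 28.6 TPM in culture. Pmp22, a myelin and growth arrest protein, and Fam212a stood at 32.2 to 46.3 TPM and 73.6 to 87.4 TPM in culture, 14.1 to 30.8 TPM (median 19.3) and 25.9 to 35.3 TPM (median 29.7) in bulk, and 2.73 to 7.38 TPM (median 4.97) and 7.2 to 11.4 TPM (median 8.75) in sorted cells. Ccnf, a cyclin that peaks in G2, showed the same order, with 45.1 to 51.8 TPM, 26 to 34 TPM (median 28.6) and 9.7 to 11.2 TPM (median 10.1). For these 3 genes the bulk tumors lay between culture and sorted cells without overlap with either. Ctsh, a lysosomal protease that macrophages also express, had 40.7 to 86.5 TPM (median 65) in bulk, 13.7 to 21.3 TPM (median 17) in sorted cells and 10.3 to 21.5 TPM in culture, so its sorted level was near that of culture.

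Of 16 cell cycle genes, 2 were called higher in bulk, Plk1, a mitotic kinase (73.7 to 83.1 TPM, median 76, against 32.7 to 48.1 TPM, median 42.4), and Rrm2, a subunit of ribonucleotide reductase (395 to 426 TPM, median 412, against 209.5 to 287 TPM, median 226), and the median was 0.40 on the log2 scale. That is 12.5% of the list, near the 9.97% of all genes. With 1 library left out at a time the count ran from 2 to 4. Of 77 ribosomal protein genes tested, 1 was called in each direction (1.3% against 9.97% and 4.31% of all genes, median −0.07), and of 92 nuclear genes of oxidative phosphorylation 2 were called higher in bulk and 1 in sorted cells (median 0.08). None of the 13 mitochondrially encoded mRNAs was called with all 12 libraries, and 6 were called higher in bulk without sg495 sorted replicate 1, the library with the highest mitochondrial share.

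The class of gene differed between the 2 directions. Protein-coding genes were 93.8% of the calls in bulk and 72.3% of those in sorted cells, against 87.0% of the genes tested. Called higher in sorted cells were 24.0% of 96 transcripts of the TEC class, whose status the annotation leaves unsettled, 14.9% of 141 processed transcripts, 11.2% of 196 lincRNAs and 9.22% of 217 antisense genes, against 3.59% of protein-coding genes. Malat1, a long RNA kept in the nucleus, had 37.3 to 57.5 TPM (median 48.9) in bulk and 44.4 to 203 TPM (median 106) in sorted cells (−1.03 ± 0.20, adjusted p = 0.00159), overlapping in 1 control library, whereas Neat1, another nuclear RNA, was not called (168 to 287 TPM against 191 to 567 TPM). Meg3, a maternally expressed long RNA that culture did not express, had 3.53 to 10.5 TPM (median 5.59) in bulk and at most 0.18 TPM in sorted cells. The counting of antisense genes depends on strand, and the strand setting of the authors' quantification is not given in the sources used here, although the library kit keeps strand.

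**Figure D4:**
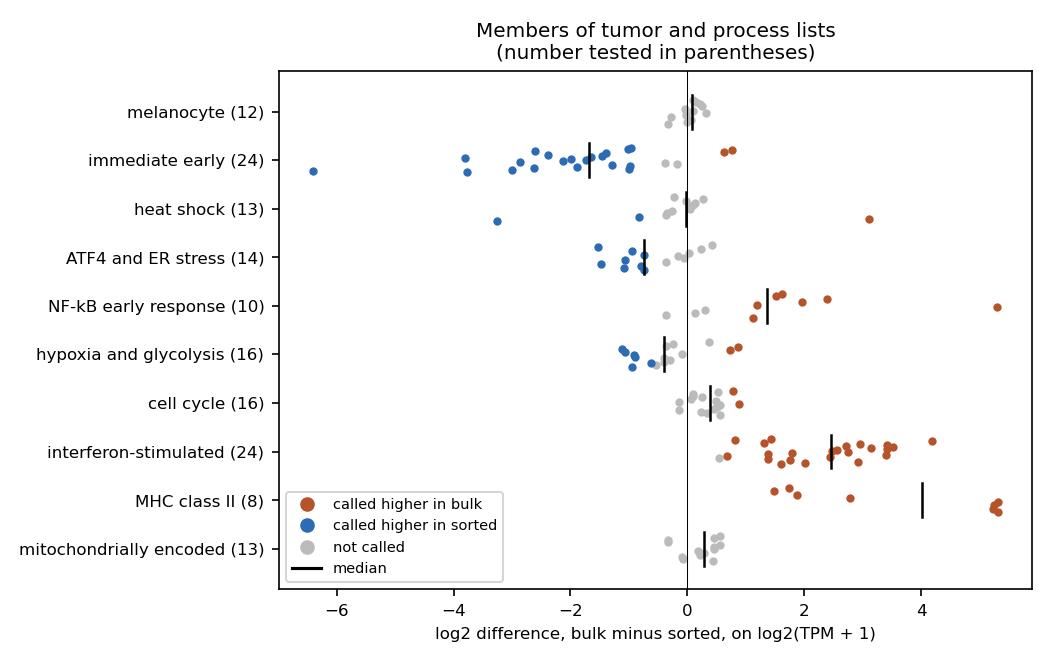
Log2 difference, bulk minus sorted, on log2(TPM + 1) for each tested member of 10 gene lists; black lines are list medians, orange and blue points are called genes. Immediate early genes lie to the left (median −1.69), interferon-stimulated and MHC class II genes to the right (2.45 and 4.01), and melanocyte genes around 0.08.

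Interferon-stimulated and MHC class II genes were higher in bulk, with medians that differed between the guide groups. Of 24 interferon-stimulated genes, 23 were called higher in bulk (95.8% against 9.97% of all genes; 19 without the sg492 libraries), and all 8 tested MHC class II genes of 9. The median difference of the interferon list was 2.41 in control, 3.20 in sg492 and 0.94 in sg495, and that of the class II list 4.63, 5.19 and 2.13. Cxcl9, a chemokine of interferon-stimulated macrophages, had 7 to 46.7 TPM (median 29.3) in bulk and at most 1.79 TPM in sorted cells. B2m, the light chain of MHC class I, had 1179.5 and 739 TPM in control bulk tumors against 344 and 238 TPM in control sorted cells, but 2052 and 1819 TPM in sg495 bulk against 1518 and 2086 TPM in sg495 sorted cells. Within sg495 its libraries therefore overlapped.

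The difference between guide groups was tested itself, as an F test of the 3 within-group differences, and 7 of 13493 genes passed (0.0519%), with 1280 at an unadjusted p below 0.05. Cd74, the invariant chain of MHC class II, H2-Aa and H2-Ab1, chains of the class II molecule I-A, were 3 of these (adjusted p = 0.00875, 0.0266 and 0.0261). Bulk tumors held Cd74 at 281 and 140.5 TPM for control, 371 and 432 TPM for sg492 and 521 and 606 TPM for sg495. Its sorted levels were 2.18 and 1.39 TPM for control, 1.77 and 1.82 TPM for sg492, and 92.4 and 92.9 TPM for sg495. H2-Aa followed, with at most 1 TPM in the 4 sorted libraries of control and sg492 and 53.7 and 53.8 TPM in sg495. Its log2 difference was 6.38 in control, 6.99 in sg492 and 2.57 in sg495. In the same sg495 sorted libraries Ptprc had 0.15 and 0.02 TPM and Adgre1 0.02 and 0 TPM, and culture had at most 0.46 TPM of Cd74 and 0 of H2-Aa. No gene passed this test with either sg495 sorted library left out, where the remaining one is taken to vary like the other groups (1246 and 1509 genes at an unadjusted p below 0.05). The immediate early genes named above did not pass it (adjusted p = 0.915 for Fosb, 0.812 for Fos and 0.354 for Egr1), and a p above the threshold does not show that the guide groups were alike.

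**Figure D5:**
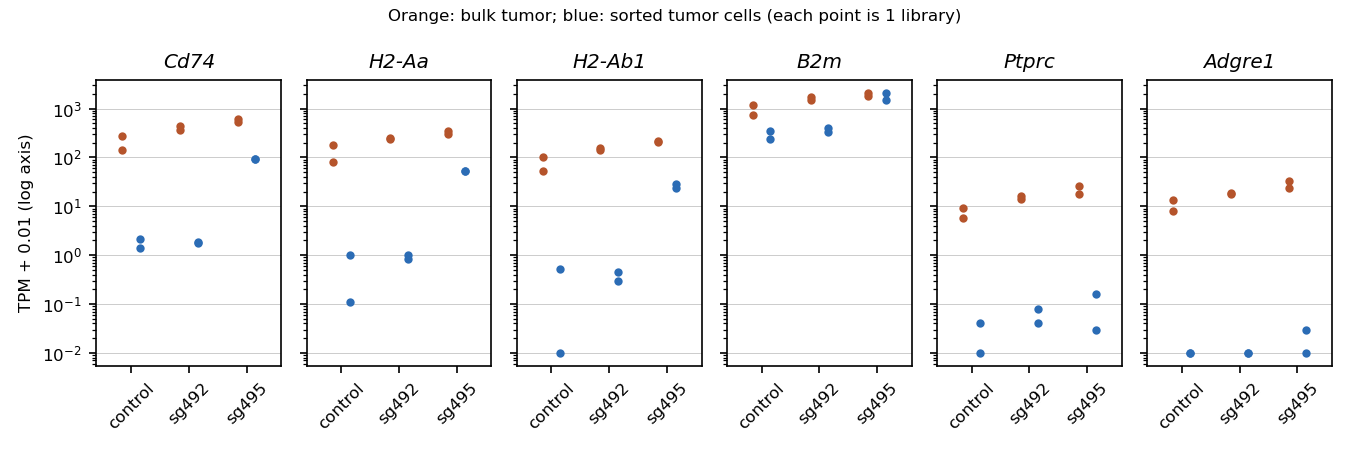
TPM of 6 genes by guide group in bulk tumors (orange) and sorted tumor cells (blue), on a shared log axis with 0.01 added; each point is a library. Among the sorted libraries, only those of sg495 rise above 3 TPM for Cd74, H2-Aa and H2-Ab1. B2m overlaps between sample types in sg495, and Ptprc and Adgre1 stay below 0.2 TPM in every sorted library.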

How the data were processed

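RNA was sequenced from B16F10 tumors in bulk, from sorted tumor cells and from cells in culture, among others, in 23 libraries, of which 12 were compared and 6 cultured libraries served as reference. The 5 libraries of antibody-treated tumors were not used. Per the methods and the submitters' processing notes, poly(A) libraries were trimmed with cutadapt (version 2.3), aligned with STAR (version 2.7.0d) to mm10 and quantified with RSEM (version 1.3.1) on Ensembl release 84. The authors deposited TPM, which sum to 999998.96 to 1000000.65 per library. The study tested estimated counts, which were not used here. TPM keep no read total and are relative, so a transcript that takes more of a library lowers the others. The depth of each library and counting error are unknown, and the authors state 23000000 to 31000000 reads.

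Groups were taken from the labels. Genes whose mean over the 12 libraries reached 1 TPM were fitted as log2(TPM + 1) with limma 3.58.1 in R 4.3.3 (empirical Bayes with an expression trend, sample type and guide group as terms, 8 residual degrees of freedom, two-sided, Benjamini-Hochberg adjustment over all 13493 genes), and called at adjusted p below 0.05 and at least 1.5-fold. The contrast within each guide group and the F test of their difference used a fit of 6 group means. On simulated data with 200 changed genes, the comparison recovered 93% of those changed by 0.8 and 99% of those changed by 2 on the log2 scale, with 3 calls among unchanged genes. Changed genes were drawn from those with a mean above 2 on the log2(TPM + 1) scale, and the simulated noise was independent between genes and libraries. Recovery of lower genes, or under variation shared within a library, was not simulated.

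Positions and gene types came from GENCODE M21 (GRCm38), which held 47224 of the 47643 genes, and promoters from RefSeq. The members and gene lists were chosen with earlier results of these data known. Genes named were Nr2f6, the defining marker of each cell type (1 is not reported here), the 3 members of highest mean TPM in each list and any called against the direction of most of its list, the 10 largest called differences per direction among protein-coding genes without overlap, the same among tumor-expressed genes, and genes that passed the test between guide groups. Other list members named as examples or exceptions, the promoters printed, the classes of noncoding genes and the families in the closing section were chosen after their values were seen.

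Alternatives were another pseudocount (0.1), no filter or a higher one (mean of 5 TPM), quantile normalization, median-of-ratios scaling, scaling on tumor-expressed genes, a replicate block, no guide block, no trend, no fold threshold, single guide groups and each library left out. The fit without the sg492 libraries and the remainder of host markers without sorted sg495 replicate 2 were added after seeing the data.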

Additional observations from a re-analysis of the deposited data

Results flagged for a closer look

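For 7 genes the difference between bulk tumors and sorted tumor cells was itself different between the guide groups (F test in limma, Benjamini-Hochberg adjusted over all genes tested). Cd74 passed at an adjusted p of 0.00875 and in 18 of 20 alternatives, with log2 differences of 6.18 in control, 7.17 in sg492 and 2.59 in sg495. H2-Ab1 passed at 0.0261 (11 of 20 alternatives) and H2-Aa at 0.0266 (9 of 20), with the smaller difference in sg495 in both. All 3 belong to antigen presentation by MHC class II, and their sorted levels in sg495 stood at 24.08 TPM or more against 2.18 TPM or less in the other sorted libraries. H2-Eb1, the beta chain of I-E, moved in the same way but did not pass (adjusted p = 0.0835).

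The other 4 were noncoding genes, and none was called between bulk and sorted over all guide groups. Snord88a, a small nucleolar RNA gene, passed at 0.00875 (16 of 19 alternatives) and was above 0 in the sg492 sorted libraries alone, at 13.3 and 20.4 TPM. Gm22431 passed at 0.00988 (15 of 19) and was above 0 in the sg495 bulk tumors alone, at 8.62 and 8.19 TPM. RP23-121N17.3 passed at 0.0266 (10 of 19) and Mir678 at 0.0495 (5 of 20). Libraries selected for poly(A) are not made to measure small RNAs, and the part of this in the results for Snord88a and Mir678 was not tested.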

How the results depend on the processing

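TPM without read totals, 2 libraries per guide group and sample type, and the loss of scale between libraries of unlike composition limit these comparisons. No gene called in one direction was called in the other under any alternative. With a mean of at least 5 TPM, 655 genes were higher in bulk, and with no fold threshold 3717 were higher in bulk and 2166 in sorted cells. Genes higher in sorted cells numbered 1380 with quantile normalization, 324 with sg492 libraries alone and 362 with sg495 libraries alone. With 1 library left out at a time, 1295 to 1379 genes were higher in bulk and 569 to 617 in sorted cells, and without the sg492 libraries 1297 and 594. The share of TPM in genes that culture did not express was a mean of 0.750% in bulk and 0.0965% in sorted cells. It was 0.552% in bulk when culture had to be at 0, and 1.14% in bulk and 0.270% in sorted cells at a limit of 0.5 TPM. Of genes at 20 TPM or more in every cultured library, 1.75% were higher in sorted cells. The cause of these shifts was not tested beyond the change of filter, threshold or number of libraries itself.

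The test between guide groups gave 7 genes, 26 with no filter, 4 with a mean of at least 5 TPM, 16 with a replicate block and 4 with no trend, and from 0 to 22 with 1 library left out. The count was 0 without either sg495 sorted library, 22 and 19 without bulk control replicates 1 and 2, 13 without bulk sg492 replicate 2 and 11 without sorted sg492 replicate 2. Same-numbered libraries did not deviate together (correlations of 0.0156 in control, −0.0373 in sg492 and −0.0503 in sg495, across genes). With 2 libraries per group, this cannot show whether same-numbered libraries came from the same tumor. The replicate block gave 1342 and 577 calls. Of 110 genes whose difference is given, 104 were called, 99 of these with each library left out and 78 in every alternative, and 17 lost a call only with fewer guide groups.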

Other observations

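Some gene families outside the lists, grouped by symbol after their values were seen, are given as values with no test of the family, to be read against the 9.97% and 4.31% of all genes tested that were called higher in bulk and in sorted cells. Of 27 collagen genes tested, 16 were called higher in bulk and none in sorted cells (median log2 difference 1.69), and of 19 CC and CXC chemokine genes 17 were higher in bulk (median 3.14). Cathepsins, the lysosomal proteases, had 5 of 11 higher in bulk, and S100 calcium-binding proteins 5 of 11. In the other direction, 11 of 18 replication-dependent and linker histone genes were higher in sorted cells and 1 in bulk (median −0.93), although reads of near-identical histone copies can be split between them. The libraries were selected for poly(A), and the part of this in the histone values was not tested. Of 18 DUSP phosphatases, which dephosphorylate MAP kinases, 9 were higher in sorted cells and 1 in bulk (median −0.49), and of 12 Krüppel-like factors 6 were higher in sorted cells (median −0.75), and Dusp1, Klf2, Klf4 and Klf6 are also on the immediate early list. Of 17 tubulin and 30 kinesin genes, 2 each were higher in bulk, near the share of all genes.

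The mitochondrial ribosomal RNAs moved apart from the mitochondrial mRNAs. mt-Rnr1 and mt-Rnr2 were both called higher in sorted cells, with log2 differences of −0.64 and −0.79 (limma adjusted p = 0.000185 and 0.0042). The call of mt-Rnr1 was lost in 3 of 25 alternatives, 1 of them with 1 library left out, and that of mt-Rnr2 in 2. None of the 13 mRNAs was called with all 12 libraries, which depended on sg495 sorted replicate 1, as described above. The libraries were selected for poly(A), and whether that bears on the result was not tested.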
